A study of Mus musculus with 9 samples.

Results

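Solute carriers are the membrane proteins that move ions, sugars, amino acids, transmitters, vitamins and drugs into and out of cells and organelles. The genes described here were those of the deposited table whose symbol begins with Slc and a digit or with Slco. The mitochondrial Slc25a carriers, Slc1a6 and Slc6a4 were left out. This gave 57 genes of 2996 in the table, spread over 27 families, with 0 Slco genes among them. RNA of perfused mouse brain was sequenced in 9 libraries, 3 per group, from mice that the study's design text describes as 24 months old. Group C has no stated dose of perfluorooctane sulfonate (PFOS), a persistent fluorinated surfactant. Group L, the low concentration, drank water with 0.5 µg PFOS per litre and group H, the high one, water with 50 µg per litre, for 7.5 months. Library names start with the group's letter and end in 1 to 3, and values for a group are given in that order. The sources used here name no strain, sex or brain region and do not tie each library to its own animal, so p-values measure only the spread between these libraries, which may be technical.

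In brain, uptake carriers of astrocytes clear glutamate from the synaptic cleft, a neuronal chloride extruder sets the strength of inhibition, and glucose and monocarboxylate carriers feed neurons. Carriers of organic anions and bile acids, such as the hepatic carrier encoded by Slc10a1, are known to transport PFOS in liver cells, and the carnitine carrier gene Slc22a5 is a known target of the fatty acid receptor PPAR alpha in mouse liver. Not every gene of the set encodes a carrier of the plasma membrane. By the annotation in the authors' deposited table, 45 of the 57 carried the plasma membrane term of the Gene Ontology. The 5 Slc35 genes, which encode carriers of nucleotides and nucleotide sugars in the endoplasmic reticulum and Golgi apparatus or relatives of these, were among the 12 without it. Slc6a15 and Slc22a4 also lacked it, while Slc36a1, a carrier of lysosomes, had it. Only that exact term was counted, so its lack does not place a gene outside the plasma membrane. Slc17a8 loads synaptic vesicles, and Slc9a3r1 and Slc9a3r2 encode scaffold proteins that anchor transporters and carry nothing themselves.

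Values are FPKM, fragments per kilobase of transcript, scaled to the size of the library, so levels of different genes can be compared. Library totals recovered from the values were 15371513 to 20431208 reads, so that 3 reads on 1 kb of transcript make 0.147 to 0.195 FPKM. The neuronal enolase gene Eno2 was at 138 to 229.7 FPKM, as a marker of the labelled tissue. Brain region markers differed between libraries of the same group. Of 17 cerebellar markers 3 were in the table, and their summed level ran from 0.0284 to 502.9 FPKM in C, 0.200 to 107.7 in L and 0.148 to 5.54 in H. The top values were those of C1 and L3, and the granule cell gene Gabra6 was at 0 in C2, C3, H2 and H3. Of 15 markers of the pallium (cortex and hippocampus) 4 were in the table, with sums of 3.19 to 130.2 in C, 5.22 to 119.6 in L and 81.4 to 143.5 in H, lowest in C1 and L3. Where leaving out C1 or L3 moved a difference by over 1.5 times, the value without it is given beside it. In bulk tissue fewer cells of a type and less RNA per cell cannot be told apart.

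Of the 57 genes, 36 exceeded 1 FPKM in at least 3 libraries and were tested. Of the other 21, 17 never exceeded 1 FPKM in any library. Mean levels over the 9 libraries exceeded 10 FPKM for 16 genes and lay between 1 and 10 for 20. The level order was led by Slc1a2 at 225 FPKM, Slc1a3 at 87.3 and Slc12a5 at 83.1, with Slc3a2 at 28.3, Slc2a3 at 25.0 and Slc6a8 at 24.3 next. The libraries of Slc1a3 and Slc12a5 overlapped, as did those of the 3 genes after them, so their order is not set beyond the spread. Slc1a2 lay above Slc1a3 in every library but C1. Between the lowest and the highest library the median tested carrier differed by 0.93 on the log2(FPKM + 1) scale, against 0.76 for the 2226 genes tested in all. In 15 of the 36 (41.7%) that range exceeded 1 log2 unit, against 30.3% of all tested genes. C1 held the highest value of 10 of the 36 carriers (27.8%), close to its 29.5% of all tested genes, and C3 and H3 held the lowest of 8 each (22.2%), where C3 held the lowest of 21.2% and H3 of 9.61% of all tested genes.

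**Figure D1:**
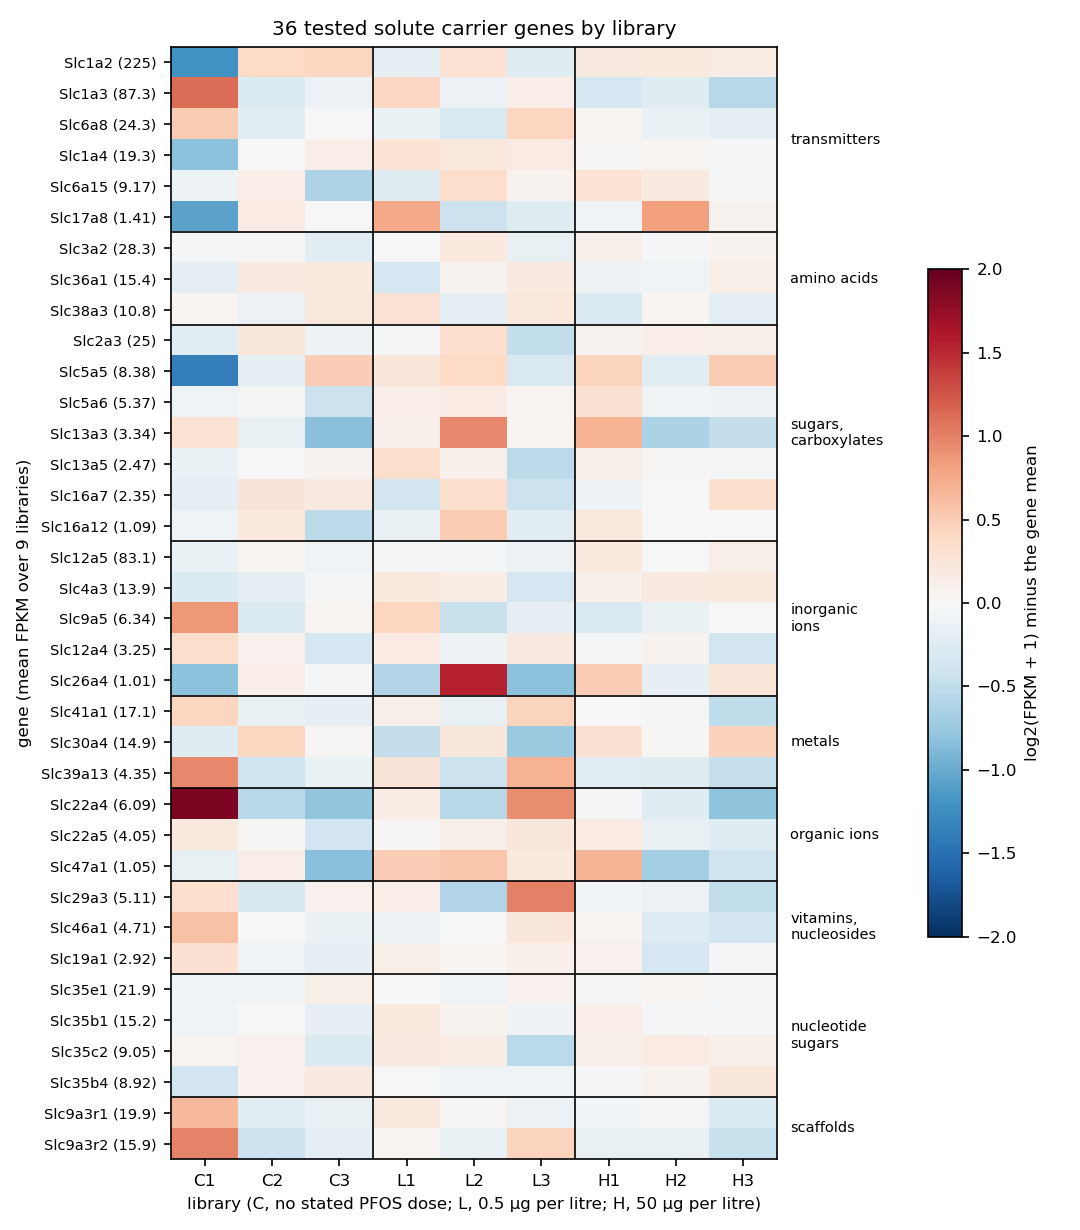
Level of the 36 tested genes in each library as log2(FPKM + 1) minus the gene's mean over 9 libraries (red higher, blue lower), grouped by role, with mean FPKM in brackets. The strongest departures were in C1 (Slc22a4 and Slc1a3 high, Slc1a2 and Slc5a5 low) and in L2 (Slc26a4 high).

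Promoter sequence is shown for 2 pairs of related carriers, because the members of each pair behaved differently across the libraries although both were expressed in all of them. Slc1a2 and Slc1a3 encode the glutamate carriers of astrocytes, and Slc22a4 and Slc22a5, which lie 91462 bases apart on chromosome 11, encode carriers of ergothioneine and of carnitine. The sequences are the 250 bases upstream of the RefSeq start on GRCm38.p6, 5′ to 3′ on the strand of the gene, with capitals marking GGGCGG or its reverse complement. Windows are chr2:102706188-102706437 on the plus strand and, on the minus strand, chr15:8710808-8711057, chr11:54028105-54028354 and chr11:53891704-53891953. The RefSeq start of Slc1a2 lies inside the GENCODE span of the gene, which begins at 102658659. The Slc1a2 window is therefore not the sequence upstream of that 5′ end, and its values below describe the RefSeq start only.
Slc1a2: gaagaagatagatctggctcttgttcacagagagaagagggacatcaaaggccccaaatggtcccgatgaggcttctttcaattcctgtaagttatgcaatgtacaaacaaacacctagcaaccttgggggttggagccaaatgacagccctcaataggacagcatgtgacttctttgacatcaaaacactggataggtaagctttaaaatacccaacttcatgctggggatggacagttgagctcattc
Slc1a3: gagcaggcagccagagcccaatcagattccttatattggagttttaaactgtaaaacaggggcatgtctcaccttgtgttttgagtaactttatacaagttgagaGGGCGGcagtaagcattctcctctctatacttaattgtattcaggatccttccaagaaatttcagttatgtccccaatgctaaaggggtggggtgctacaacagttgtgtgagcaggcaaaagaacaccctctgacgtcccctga
Slc22a4: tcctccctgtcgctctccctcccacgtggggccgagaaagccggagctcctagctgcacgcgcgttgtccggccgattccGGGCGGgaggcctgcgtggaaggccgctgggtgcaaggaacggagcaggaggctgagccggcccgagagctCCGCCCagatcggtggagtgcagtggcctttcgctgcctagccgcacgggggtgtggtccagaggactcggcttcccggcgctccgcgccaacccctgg
Slc22a5: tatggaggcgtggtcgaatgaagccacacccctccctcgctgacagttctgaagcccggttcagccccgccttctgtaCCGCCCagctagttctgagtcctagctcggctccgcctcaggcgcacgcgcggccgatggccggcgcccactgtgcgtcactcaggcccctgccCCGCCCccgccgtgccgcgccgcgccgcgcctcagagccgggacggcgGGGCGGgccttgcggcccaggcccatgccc
GC content of the windows was below the median for the astrocyte pair and above it for the Slc22 pair. It was 44.8% for both Slc1a2 and Slc1a3, 71.2% for Slc22a4 and 73.6% for Slc22a5, with 1, 2, 26 and 30 CG dinucleotides, where the median of 32851 RefSeq promoter windows of this length was 52.4% and 6. GGGCGG on either strand occurred 0, 1, 2 and 3 times, and 32.7% of all windows held it. AGGTCA, the half-site bound by many nuclear receptors, PPARs included, was in none of these 4 windows on either strand and in 14.0% of all windows. At that share, its absence from 4 windows carries little information. A search for this exact half-site in 250 bases cannot show that a gene lacks a receptor site. CCAAT or its reverse complement occurred 3 times in the Slc1a3 window and not in the other 3, against 33.8% of all windows that held it. Of the 57 genes 48 were matched in the RefSeq table, with 62 windows, of which 56.5% held GGGCGG.

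Among the carriers of glutamate, Slc1a2 (GLT-1; ENSMUSG00000005089, chromosome 2, 102658659 to 102790784, plus strand, GRCm38) is the main glutamate carrier of forebrain astrocytes. It stood at 92.4, 285 and 289.7 FPKM in group C, 189, 262 and 182 FPKM in group L and 243, 247 and 238 FPKM in group H. The H libraries lay within a narrow band that the C libraries straddled, with C1 lowest of all. Slc1a3 (GLAST; ENSMUSG00000005360, chromosome 15, 8634124 to 8710764, minus strand) is the glutamate carrier that prevails in Bergmann glia of the cerebellum. It stood at 179.9, 67.9 and 75.2 FPKM in group C, 109, 75.1 and 89.8 FPKM in group L and 64.0, 69.1 and 55.8 FPKM in group H. C1 was the highest, and every H library was below every L library, while H and C overlapped.

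The ratio of Slc1a3 to Slc1a2 within a library does not depend on library scaling. It was 1.95 in C1, 0.576 in L1 and 0.493 in L3, and 0.234 to 0.287 in the other 6 libraries. The cerebellar markers were also highest in these 3 libraries, in the order C1, L3 and L1. The summed level of the pair varied less, at 272.4 to 364.9 FPKM in C, 271.7 to 336.8 in L and 294.1 to 315.8 in H. General astrocyte markers, 4 of 12 in the table, summed to 670.1 to 948 FPKM in C, 769.6 to 1219 in L and 616.3 to 890.4 in H. Their part in these values was not tested.

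The other carriers of these families had lower levels. Slc1a4 (ASCT1, a carrier of serine and other small neutral amino acids; ENSMUSG00000020142, chromosome 11, 20302180 to 20332713, minus strand) was at 10.2, 18.7 and 20.8 FPKM in group C, 23.1, 21.9 and 21.2 FPKM in group L and 19.2, 19.6 and 18.6 FPKM in group H. The L libraries lay above all others, and C1 was by far the lowest. Slc6a8, the creatine carrier, ranged over 19.1 to 34.4 FPKM with C1 and L3 highest. Slc6a15, a neuronal carrier of branched-chain amino acids and proline, ranged over 5.54 to 11.7 FPKM. Slc17a8 (VGLUT3, the vesicular glutamate carrier of scattered serotonergic and cholinergic neurons) was at 0.0741, 1.53 and 1.24 FPKM in group C, 2.79, 0.689 and 0.901 FPKM in group L and 1.13, 2.96 and 1.35 FPKM in group H. Its highest libraries, H2 and L1, were also those with the highest level of the striatal adenosine receptor gene Adora2a (26.5 and 26.4 FPKM). The striatal markers in the table, Adora2a and Rgs9 (2 of 11), summed to 1.26 to 25.0 FPKM in C, 2.26 to 57.0 in L and 2.62 to 53.0 in H, and their part was not tested. Slc1a5 (ASCT2, a glutamine exchanger) reached 1.27 FPKM in H1 and Slc1a7, known from retina, at most 0.0907 FPKM, and neither was tested.

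For amino acid exchange, Slc3a2, the heavy chain that brings several exchangers to the cell surface, was among the steadiest genes at 24.4 to 32.5 FPKM. Slc36a1, a proton-coupled amino acid carrier of lysosomes, ranged over 11.8 to 17.6 FPKM and Slc38a3, a glutamine carrier of astrocytes, over 8.52 to 13.2 FPKM. None of the 3 separated the groups in H against C or L against C. Slc7a7 passed 1 FPKM in L1 and H2 alone (1.38 and 1.04), and Slc36a2 and Slc7a15 stayed at or under 0.286 FPKM.

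Carriers of sugars and carboxylates were led by Slc2a3 (GLUT3, the neuronal glucose carrier), which stood at 21.02, 28.9 and 22.8 FPKM in group C, 23.9, 31.4 and 17.3 FPKM in group L and 26.1, 27.2 and 26.7 FPKM in group H. The H libraries fell inside the range of both other groups. Slc16a7 (MCT2), the high-affinity lactate and ketone carrier of neurons, ranged over 1.43 to 3.10 FPKM, and the citrate carrier gene Slc13a5 over 1.40 to 3.39 FPKM. Slc5a5, the sodium-iodide symporter known from thyroid, was at 2.39, 6.67 and 11.4 FPKM in group C, 9.37, 10.6 and 6.11 FPKM in group L and 11.0, 6.52 and 11.4 FPKM in group H. Its C libraries spanned nearly the whole range of the other groups. Slc5a6, the carrier of biotin and pantothenate, ranged over 3.68 to 6.76 FPKM, and Slc16a12, a creatine carrier of the monocarboxylate family, over 0.437 to 1.92 FPKM.

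The intestinal and renal glucose carrier gene Slc5a1 (ENSMUSG00000011034, chromosome 5, 33104219 to 33162870, plus strand) was not tested, as only 2 libraries passed 1 FPKM. It had 290 reads (4.12 FPKM) in C1, 90 reads (1.195 FPKM) in L3 and 15 (0.223 FPKM) in L1, and 0 to 6 reads in the other 6 libraries. These 3 libraries are again those with the highest cerebellar markers, whose part was not tested. Of the rest, Slc16a10 passed 1 FPKM in C1 alone (1.505), and Slc2a9, a urate carrier, had its highest value in C1 (0.940). Slc5a4a, Slc5a4b, Slc5a8 and Slc13a2 stayed at or under 0.0762 FPKM.

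Among ion carriers, Slc12a5 (KCC2; ENSMUSG00000017740, chromosome 2, 164960802 to 164999731, plus strand) extrudes chloride from neurons and thereby keeps GABA inhibitory. It stood at 75.8, 85.3 and 78.9 FPKM in group C, 81.6, 82.0 and 76.1 FPKM in group L and 94.9, 83.4 and 90.2 FPKM in group H, a 1.25-fold range over all 9 libraries. The H libraries lay above all L libraries and overlapped C. Slc4a3 (AE3, a chloride-bicarbonate exchanger of neurons; ENSMUSG00000006576, chromosome 1, 75546266 to 75562172, plus strand) was at 11.1, 11.9 and 13.5 FPKM in group C, 15.9, 15.4 and 10.7 FPKM in group L and 14.9, 15.7 and 15.8 FPKM in group H. All H libraries lay above all C libraries. The neuron markers in the table, Map2 and Eno2 (2 of 11), summed to 179 to 264 FPKM in C, 244 to 275 in L and 280.2 to 307 in H. Every H library was thus also above every C and L library in this sum. Eno2 by itself separated H too, at 213 FPKM or more in H and at most 208 in C and 205 in L. Map2 overlapped, at 65.9 to 77.0 FPKM in H and up to 69.1 in both C and L. The part of these markers in the values of Slc12a5 and Slc4a3 was not tested. The neuronal sodium-proton exchanger gene Slc9a5 ranged over 4.19 to 11.9 FPKM, highest in C1, and the potassium-chloride cotransporter gene Slc12a4 over 2.26 to 4.37 FPKM. Slc12a7, Slc4a1 (the band 3 protein of red cells), Slc26a3 and Slc34a3 stayed at or under 0.760 FPKM.

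The metal carriers were Slc41a1 (magnesium), Slc30a4 (zinc, into vesicles) and Slc39a13 (zinc, out of the secretory pathway). Slc41a1 ranged over 11.6 to 23.1 FPKM, highest in L3 and C1. Slc30a4 was at 11.99, 19.7 and 14.7 FPKM in group C, 10.02, 16.9 and 8.19 FPKM in group L and 17.9, 14.5 and 20.03 FPKM in group H. L3 and L1 were the lowest libraries, L2 lay among the others, and H and L overlapped. Slc39a13 was at 8.76, 2.83 and 3.58 FPKM in group C, 5.01, 2.72 and 7.11 FPKM in group L and 3.28, 3.26 and 2.65 FPKM in group H, with C1 and L3 on top. Slc39a13 shares 215 exonic bases with Psmc3 on the opposite strand. The sources do not say whether reads were counted by strand, so reads of the 2 genes in that stretch cannot be told apart. The same limit holds for Slc1a2, Slc5a6, Slc7a7, Slc12a4, Slc13a2, Slc13a5, Slc16a7, Slc30a4 and Slc35b4, which share 130 to 919 exonic bases with a gene on the opposite strand. The level of Psmc3, 46.7 to 62.4 FPKM over the libraries, was 48.5 in C1 and 50.9 in L3, among its lowest. Atraid, which shares 396 exonic bases with Slc5a6, was like Slc5a6 highest in H1 (18.1 FPKM), next in L2 (16.8) and lowest in C3 (11.2). Oxa1l, which shares 232 with Slc7a7, was highest in L3 (12.8 FPKM), and Slc7a7 in L1. The part of these overlaps in the values was not tested.

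Among carriers of organic ions, Slc22a5 (OCTN2, the carnitine carrier; ENSMUSG00000018900, chromosome 11, 53864542 to 53891660, minus strand) was at 4.74, 4.11 and 2.82 FPKM in group C, 4.11, 4.44 and 4.88 FPKM in group L and 4.62, 3.50 and 3.23 FPKM in group H. All 3 groups overlapped, and the highest library was 1.73 times the lowest. Slc22a4 (OCTN1; ENSMUSG00000020334, chromosome 11, 53983123 to 54028090, minus strand) was at 20.3, 2.95 and 2.34 FPKM in group C, 5.37, 2.94 and 10.01 FPKM in group L and 4.68, 3.88 and 2.32 FPKM in group H. It spanned 8.76-fold, with C1, L3 and L1 at the top, and the ratio of Slc22a4 to Slc22a5 was 4.28 in C1, 2.05 in L3, 1.31 in L1 and 0.661 to 1.11 in the other 6 libraries. Slc10a1, the bile acid carrier that takes up PFOS in liver, had 0 to 17 reads per library and at most 0.471 FPKM, in L1. Slc22a18 reached 0.684 FPKM, and Slc22a16 had 0 reads in every library, where a floor of 3 reads allows up to 0.0608 to 0.0808 FPKM. This limit covers counting error only.

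**Figure D2:**
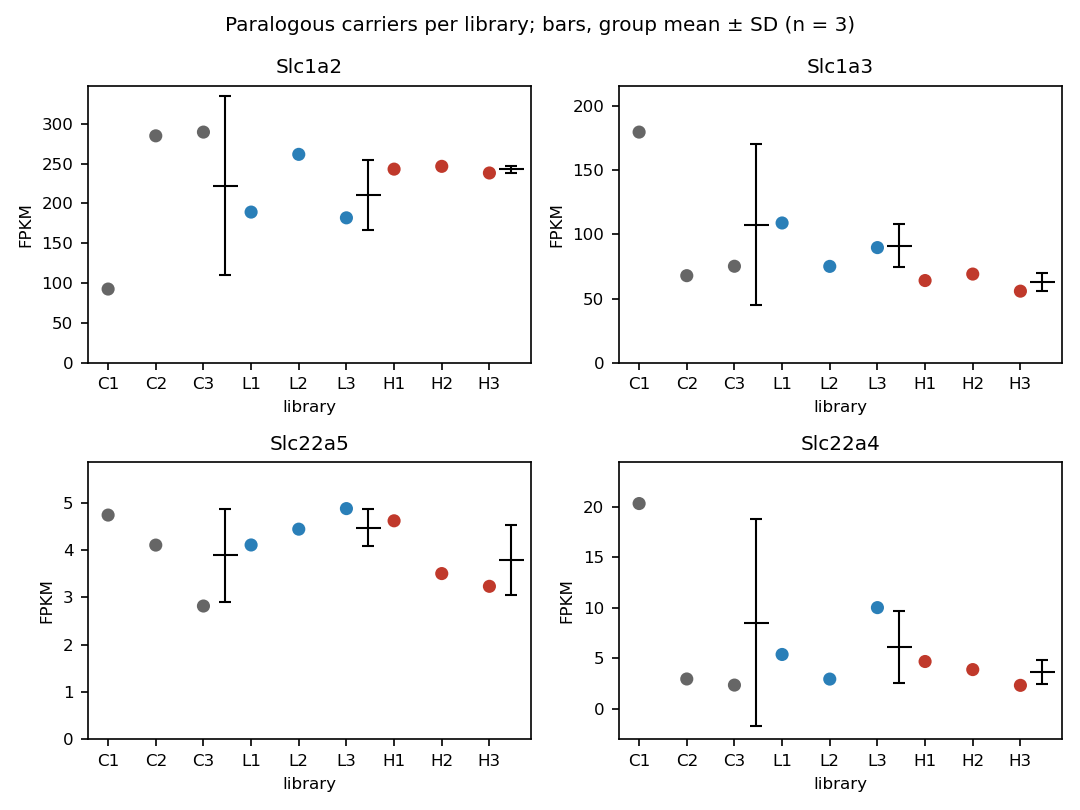
FPKM per library (grey C, blue L, red H) of the glutamate carriers Slc1a2 and Slc1a3 and of Slc22a5 and Slc22a4, with group mean ± SD (n = 3). C1 is the lowest library for Slc1a2 (92.4 FPKM) and the highest for Slc1a3 (179.9) and Slc22a4 (20.3), while Slc22a5 stays between 2.82 and 4.88.

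L2 and H1 were the 2 highest libraries for 7 of the 36 tested carriers (19.4%), against 6.06% of all tested genes, a pair of libraries that was picked after the values were seen. These were Slc3a2, Slc5a6, Slc6a15, Slc13a3, Slc16a12, Slc26a4 and Slc47a1, and the 3 with the widest range among them are given in full. For Slc5a6 the overlap with Atraid, given above, is a limit. Slc13a3, a dicarboxylate carrier, was at 3.93, 2.63 and 1.26 FPKM in group C, 3.31, 6.81 and 3.15 FPKM in group L and 5.5, 1.58 and 1.89 FPKM in group H. Slc47a1 (MATE1, an exporter of organic cations) was at 0.741, 1.12 and 0.0769 FPKM in group C, 1.71, 1.82 and 1.21 FPKM in group L and 2.10, 0.207 and 0.469 FPKM in group H. Slc26a4 (pendrin, an anion exchanger known from inner ear, thyroid and kidney) was at 0, 0.918 and 0.711 FPKM in group C, 0.177, 4.10 and 0 FPKM in group L and 1.496, 0.571 and 1.09 FPKM in group H, from 0 to 255 reads. L2 was the highest library for Slc13a3 and Slc26a4 and the next after H1 for Slc47a1. The meningeal and fibroblast markers, of which Dcn, Col1a1 and Aldh1a2 (3 of 16) were in the table, summed to 3.46 to 10.4 FPKM in C, 9.53 to 26.7 in L and 2.93 to 14.8 in H, with L2 first and H1 next, and none was at 0 in any library. The sum in L3, 12.9 FPKM, was close to that in H1. After L2, Dcn was next in L3 (7.53 FPKM) and not in H1 (5.14), while Col1a1 and Aldh1a2 were next in H1. The part of these markers was not tested, since the genes were grouped by the libraries in which the markers were highest.

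**Figure D3:**
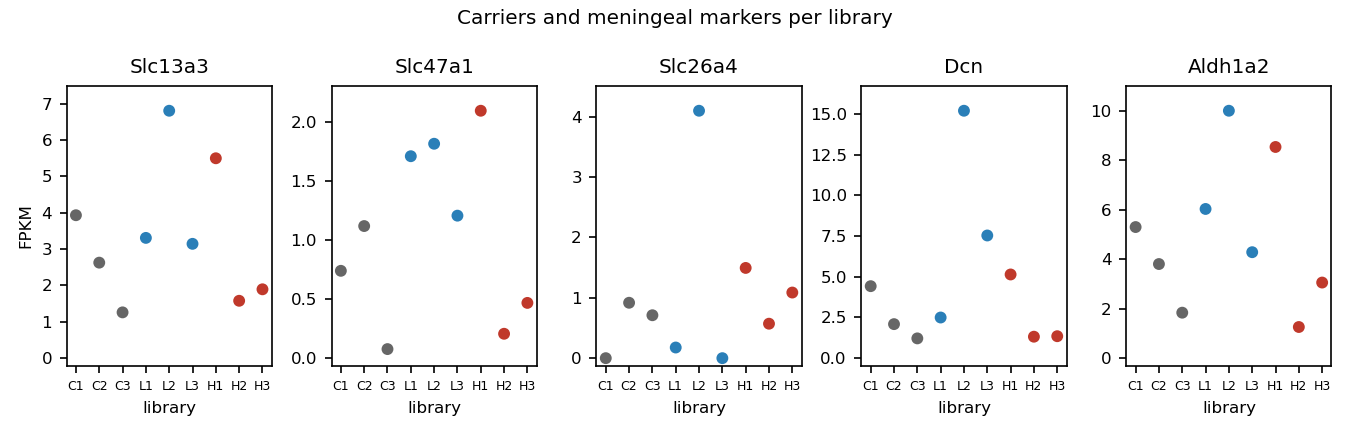
FPKM per library (grey C, blue L, red H) of Slc13a3, Slc47a1 and Slc26a4 beside the meningeal markers Dcn and Aldh1a2. L2 is highest in all panels but that of Slc47a1, where H1 (2.10 FPKM) lies above L2 (1.82).

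The vitamin and nucleoside carriers were Slc46a1 (the proton-coupled folate carrier, 3.29 to 7.45 FPKM), Slc19a1 (the reduced folate carrier, 2.05 to 3.83 FPKM) and Slc29a3 (a nucleoside carrier of lysosomes, 2.88 to 10.6 FPKM). C1 was highest for both folate carriers and L3 for Slc29a3. Slc44a4 reached at most 0.272 FPKM. Of the intracellular Slc35 genes, Slc35e1 was the steadiest of all tested carriers at 20.7 to 23.7 FPKM. Slc35b1, which exchanges ATP and ADP across the endoplasmic reticulum, ranged over 13.4 to 17.5 FPKM, Slc35b4, a carrier of UDP-sugars, over 6.53 to 10.5 FPKM and Slc35c2 over 5.83 to 10.3 FPKM, while Slc35g3 stayed at or under 0.289 FPKM. The scaffold genes Slc9a3r1 and Slc9a3r2 ranged over 15.8 to 31.0 FPKM and 10.8 to 31.0 FPKM, both highest in C1.

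Set against C, group H shows which carriers differed in brains exposed to the higher concentration. None of the 36 did so past the threshold (limma, adjusted p under 0.05 over 2226 genes; lowest adjusted p = 0.89), where percent called over all genes was 0%. At an unadjusted p under 0.05 there were 0 carriers with limma and 0 with limma-voom on the recovered reads, against 3.19% of all tested genes in limma. In limma-voom it was 67 of the 2226 genes. Means were higher in H for 19 carriers and lower for 17, with a median difference of 0.07 on the log2(FPKM + 1) scale, against 0.02 over all tested genes. Groups did not overlap for 2 of 36, Slc4a3 and Slc35c2, both higher in H, against 10.3% of all tested genes in either direction and 5.35% higher in H. All differences that follow are given ± SE on the log2(FPKM + 1) scale, a scale that understates the change of low genes, and none passed the test.

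The smallest p-value was that of Slc4a3, with a mean ± SD (n = 3) of 15.5 ± 0.519 FPKM in H against 12.2 ± 1.23 FPKM in C, a difference of 0.32 ± 0.16 with a 95% interval of -0.04 to 0.69. Without C1 it was 0.27, and without C3 0.40. Next among the genes with higher means came Slc6a15 (0.33 ± 0.22), Slc12a5 (0.16 ± 0.11), Slc5a5 (0.60 ± 0.44) and Slc17a8 (0.57 ± 0.43). With a pseudocount of 0.1 Slc17a8 differed by 1.28, and by 1.61 with limma-voom. Every H library was above every C library in the summed neuron markers, as given above, though Map2 by itself overlapped. The chloride carrier Slc12a5 averaged 89.5 ± 5.76 FPKM in H and 80.01 ± 4.83 in C. Slc35c2, at 9.60, 10.1 and 9.63 FPKM in H against 9.33, 9.52 and 7.15 FPKM in C, differed by 0.17 ± 0.20. Without C1, Slc5a5 differed by 0.10 and Slc17a8 by 0.19, and without C3 Slc6a15 by 0.12 and Slc35c2 by 0.05.

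Lower means in H were led by Slc1a3, at 63.0 ± 6.74 FPKM in H and 108 ± 62.7 in C, a difference of -0.62 ± 0.34 with an interval of -1.40 to 0.15. The folate carrier Slc46a1 (-0.35 ± 0.21), Slc39a13 (-0.45 ± 0.38), Slc9a5 (-0.36 ± 0.32) and Slc38a3 (-0.18 ± 0.16) followed. Without C1 the differences were -0.18 for Slc1a3, -0.13 for Slc46a1, -0.05 for Slc39a13 and -0.03 for Slc9a5. Slc1a2 averaged 243 ± 4.20 FPKM in H and 222 ± 113 in C (0.30 ± 0.40), and its direction turned, to -0.24 without C1. Slc38a3 differed by -0.10 without C3 and -0.27 without H2. The direction of Slc22a4 also turned, at -0.54 ± 0.68 with all libraries and 0.31 without C1. For the carnitine carrier Slc22a5 the means were 3.79 ± 0.736 FPKM in H and 3.89 ± 0.981 in C.

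By role, the counts of means were as follows. Roles were assigned by gene family, the scaffold genes apart, and not by the substrate of each member. The transmitter list thus also holds Slc1a4, Slc6a8 and Slc6a15, and the sugar and carboxylate list Slc5a5, Slc5a6 and Slc16a12. Of the transmitter list 4 of 6 tested had higher means in H, of the sugar and carboxylate list 6 of 7, of inorganic ion carriers 3 of 5 and of Slc35 genes 3 of 4. Of folate and nucleoside carriers 0 of 3 had, of amino acid exchangers 1 of 3, of metal carriers 1 of 3, of organic ion carriers 1 of 3 and of the scaffold genes 0 of 2, with 0 members called in any list and no list tested as a whole. Over all tested genes 52.7% had higher means in H. The 95% interval of a carrier's difference reached 0.51 to either side at the median, or 1.43-fold on the FPKM + 1 scale, from 0.24 for Slc35e1 to 1.57 for Slc22a4. A difference smaller than its gene's width does not reach an unadjusted p under 0.05 in limma with 3 libraries per group. A call after adjustment over all tested genes takes a larger one, so these widths are no limit of detection.

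**Figure D4:**
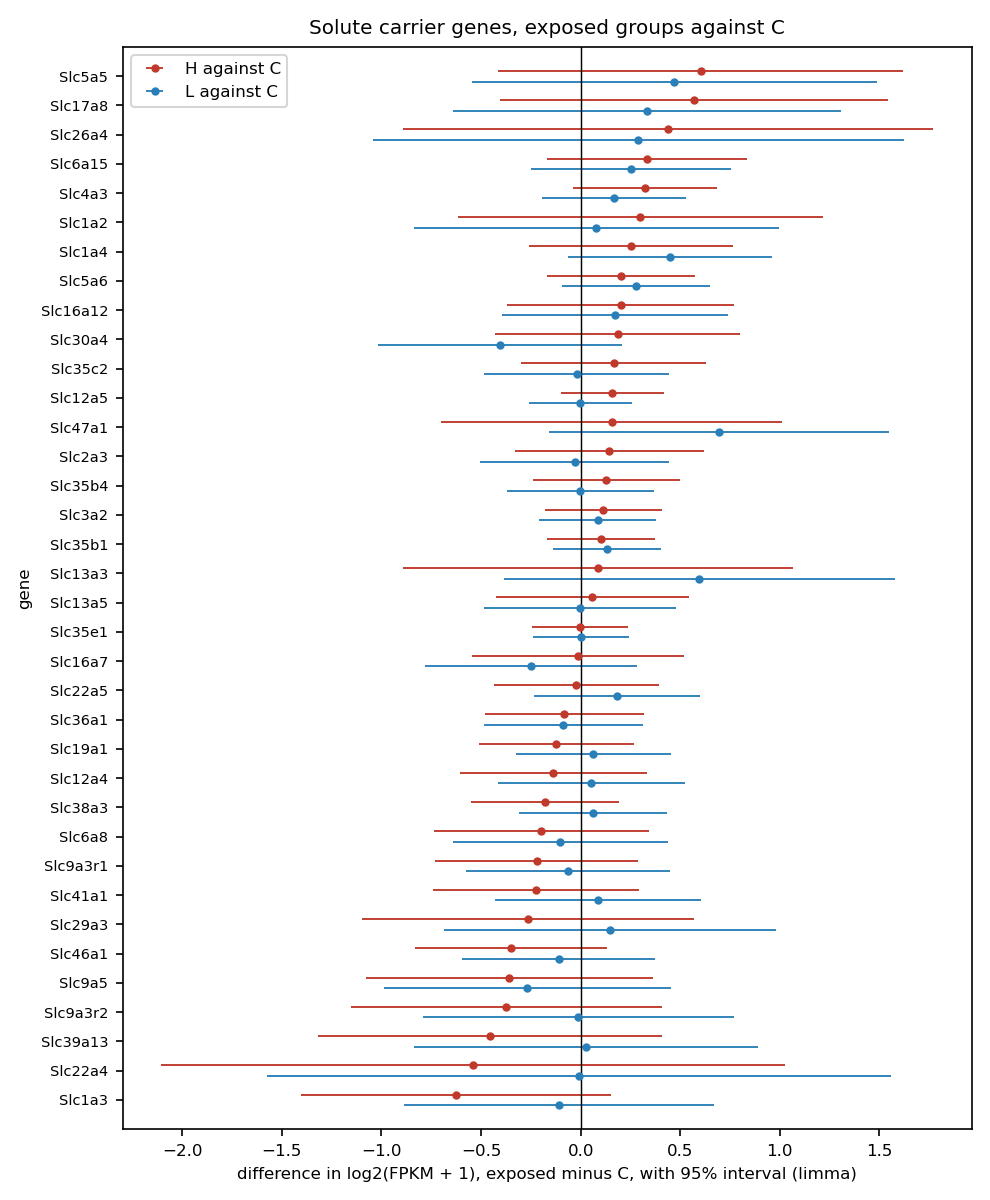
Difference in log2(FPKM + 1) of each tested gene, H minus C (red) and L minus C (blue), with 95% intervals from limma and genes ordered by H minus C. Every interval includes 0, and that of Slc22a4 in H against C, -2.10 to 1.03, is as wide as any.

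The lower concentration was compared with C in the same way. No carrier passed the threshold (limma, lowest adjusted p among carriers = 0.998), as did 0% of all genes. At an unadjusted p under 0.05 there were 0 carriers with limma and 0 with limma-voom, against 3.91% of all tested genes in limma. In limma-voom it was 77 of the 2226 genes. Means were higher in L for 21 carriers and lower for 15, where 56.3% of all tested genes had higher means, with a median difference of 0.06, against 0.03 over all tested genes. Groups did not overlap for 3 of 36 (8.33%), all higher in L, against 6.65% of all tested genes in either direction and 4.99% higher in L.

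These 3 were Slc1a4, with a mean ± SD (n = 3) of 22.1 ± 0.970 FPKM in L against 16.6 ± 5.59 FPKM in C, a difference of 0.45 ± 0.22, Slc47a1 (0.70 ± 0.37) and Slc5a6 (0.28 ± 0.16). Slc1a4 differed by 0.16 without C1, and by 0.48 with the score of cerebellar minus pallial markers as a covariate. C1 was lowest for Slc1a4 and highest for the cerebellar markers, so the covariate value is no independent check. Without C3, Slc47a1 differed by 0.42 and Slc5a6 by 0.14, and Slc5a6 has the limit of its overlap with Atraid given above. Slc47a1, a low gene, differed by 1.55 with a pseudocount of 0.1 and by 1.83 with limma-voom. Slc13a3 (0.60 ± 0.43) and Slc6a15 (0.25 ± 0.22) came next among genes with higher means. They stood at 0.29 and 0.05 without C3, and at 0.30 and 0.11 without L2. With the meningeal marker score as a covariate Slc47a1 differed by 0.12, Slc5a6 by 0.078, Slc13a3 by -0.23, Slc6a15 by -0.021 and Slc1a4 by 0.62. All but Slc1a4 were highest in L2 and H1, as were the summed meningeal markers. These values are thus no independent check. Lower means were those of Slc30a4, at 11.7 ± 4.57 FPKM in L and 15.4 ± 3.91 in C (-0.41 ± 0.27), Slc16a7 (-0.25 ± 0.23), Slc9a5 (-0.27 ± 0.32), Slc46a1 (-0.11 ± 0.21) and Slc36a1 (-0.09 ± 0.18). Without L3 the Slc30a4 difference was -0.20 and without L2 -0.68, while without C1 Slc9a5 stood at 0.06 and Slc46a1 at 0.11. Slc16a7 differed by -0.11 without L3, -0.38 without C1 and -0.49 without L2. Slc36a1 differed by -0.20 without L3 and -0.22 without C1, and Slc46a1 by -0.20 without L3. The comparisons of H and of L with C share the C libraries. Slc22a5 averaged 4.48 ± 0.386 FPKM in L and 3.89 ± 0.981 in C, and Slc12a5 79.9 ± 3.26 in L and 80.01 ± 4.83 in C.

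Between H and L the 2 concentrations were compared directly. Again 0 carriers passed the threshold (limma, lowest adjusted p = 0.961), as did 0% of all genes. At an unadjusted p under 0.05 there were 0 with limma or limma-voom, against 1.35% of all tested genes in limma. In limma-voom it was 32 of the 2226 genes. Groups did not overlap for 4 of 36 (11.1%), against 9.07% of all tested genes, 2.34% higher and 6.74% lower in H. Means were higher in H for 16 carriers and lower for 20, where 44.9% of all tested genes had higher means. Slc12a5 was higher in H by 0.16 ± 0.11, and Slc1a3 (-0.52 ± 0.34), Slc9a3r2 (-0.36 ± 0.34) and Slc1a4 (-0.20 ± 0.22) had lower values in H. The summed neuron markers were also above those of every L library in every H library, at 280.2 to 307 FPKM in H against 244 to 275 FPKM in L, and their part in the Slc12a5 difference was not tested. Taken by itself, Map2 overlapped between H and L. Slc1a3 averaged 63.0 ± 6.74 FPKM in H against 91.3 ± 16.99 FPKM in L (mean ± SD, n = 3), and Slc9a3r2 12.6 ± 1.57 in H and 16.7 ± 3.85 in L. With the score of cerebellar minus pallial markers as a covariate the Slc1a3 difference was -0.20, that of Slc9a3r2 -0.0086 and that of Slc1a4 -0.39. Slc1a3 and Slc9a3r2 were highest and Slc1a4 lowest in C1, where the cerebellar markers were highest. These covariate values are therefore no independent check. Without L3 the Slc9a3r2 difference was -0.19. The smallest p-value was that of Slc30a4, at 17.5 ± 2.77 FPKM in H and 11.7 ± 4.57 in L, a difference of 0.59 ± 0.27, and it was 0.39 without L3. Slc16a7 (0.24 ± 0.23) also had a higher mean in H, and Slc38a3 (-0.24 ± 0.16) and Slc47a1 (-0.54 ± 0.37) lower ones. Slc16a7 differed by 0.10 without L3 and 0.48 without L2, and Slc38a3 by -0.15 without L1 and -0.39 without L2. Slc47a1 differed by -0.95 without H1 and -0.27 without H2, and by -1.19 with a pseudocount of 0.1 and -1.35 with limma-voom.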

How the data were processed

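Brain mRNA libraries were compared as groups C, L and H, 3 libraries each. The authors deposited FPKM per gene and library, and a length for each gene, as the file headers show. GRCm38 is the build named in the submitters' processing notes. The aligner, counting program and strand setting are named in none of these sources. A single blank line was skipped. Values were used as deposited. Value times length was a whole multiple of 1 read within 0.01 reads for 100% of values in every library, which gave the depths. Coordinates are those of GENCODE M21 on GRCm38, since the table's own equalled them for 20 genes only. Every identifier matched GENCODE.

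Tests covered the 2226 genes that exceeded 1 FPKM in 3 or more libraries, fitted on log2(FPKM + 1) with limma 3.58.1 under R 4.3.3, with 1 linear model over all 9 libraries, a mean-variance trend, robust moderation, two-sided p-values and Benjamini-Hochberg adjustment over all genes tested, and calls at 0.05. The smallest p that exact permutation allows at this size, 3 libraries against 3, is 0.1. Named genes are those with the smallest p-values per comparison, the highest levels, the widest ranges, a fixed set and 1 per role. Slc22a5, Slc35c2, Slc5a1 and other genes outside this rule were added after their values were seen. The genes, role lists and marker lists were chosen with earlier results of these data known. Tables and figures were made with pandas 2.3.3 and matplotlib 3.10.9 under Python 3.11.15. Promoter windows come from RefSeq on GRCm38.p6.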

Additional observations from a re-analysis of the deposited data

How the results depend on the processing

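Across 22 alternative settings (pseudocounts of 0.1 and 0.5, filters, scalings, limma-voom, no robust moderation, other sets of libraries, a replicate block and marker covariates) the number of carriers with an adjusted p under 0.05 was 0 in all 3 comparisons. Of 682 recomputed differences of named genes, 248 could not change by construction (filters, moderation, a fit of 2 groups, the block, a left-out library of the group not compared). Of the other 434, 420 kept their direction and 14 turned. Most of these differences were picked from the same values, for small p-values or groups that did not overlap. Kept directions are therefore no independent support. The number of carriers at an unadjusted p under 0.05, which was 0, became 1 (Slc36a2) in H against C, 2 (Slc12a7 and Slc1a7) in L against C and 1 (Slc12a7) in H against L with no filter, and 1 in each comparison when the fit held the 2 groups compared alone (Slc4a3, Slc47a1 and Slc1a3). It was 1 in each without C1 and L3 (Slc4a3 in both comparisons with C, Slc1a3 in H against L). With the cerebellar score as a covariate it was 1 in L against C and 1 in H against L (Slc1a4 in both), and with the meningeal score 1 in L against C (Slc17a8) and 2 in H against L (Slc30a4 and Slc38a3). With single libraries left out it ranged from 0 to 1 in H against C, 0 to 2 in L against C and 0 to 4 in H against L, the last without L2. The share of all tested genes at that p was not taken in the settings named here. These counts therefore cannot be read as particular to carriers. The cause of the changes was not tested.

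The median difference of the carriers was 0.0052 in H against C with the cerebellar score. In L against C it was -0.0096 after quantile normalization, -0.043 with the meningeal score and 0.18 without C1 and L3, and in H against L 0.012 with the meningeal score. In H against C, Slc1a2 turned to -0.042 and Slc22a4 to 0.081 with the cerebellar score, and to -0.24 and 0.31 without C1 and L3, with ranges of -0.24 to 0.58 and -1.02 to 0.31 when single libraries were left out. In L against C, Slc6a15 turned to -0.021 and Slc13a3 to -0.23 with the meningeal score, and Slc46a1 to 0.020 and Slc9a5 to 0.12 without C1 and L3. With single libraries left out, Slc46a1 ranged from -0.25 to 0.11, Slc9a5 from -0.52 to 0.061 and Slc36a1 from -0.22 to 0.070. In H against L, Slc47a1 turned to 0.054 with the meningeal score, and in L against C Slc5a6 was 0.078 and Slc47a1 0.12 with it. Several of these carriers were highest in the same libraries as the meningeal markers, so the values with the meningeal score are no independent check. The same holds for the cerebellar score. Slc22a4 was highest and Slc1a2 lowest in C1, where the cerebellar markers were highest. The 12 genes with the highest mean shared 11 with the 12 highest by median.

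With the replicate number as a block, 0 carriers passed in any comparison at either p. The median differences, 0.07, 0.06 and -0.05, cannot change in this balanced design. Deviations of same-numbered libraries correlated at -0.51 to 0.68, over 0.1 in 3 of 9 pairs. With 3 libraries per group, whose regional markers differ, these correlations cannot decide whether same-numbered libraries share a batch. Genes with 20 or fewer reads in every library, 13 of the 57, are limited by counting error.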
